A study of Mus musculus with 4 samples.

Results

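The genes described here are the 3 GADD45 genes (Gadd45a, Gadd45b and Gadd45g) and 5 genes of the BTG/TOB family (Btg1, Btg2, Btg3, Tob1 and Tob2). They are 8 of the 31704 names on a whole mouse genome array. Each name is counted as a gene below, including clone names and the names of unannotated probes. The 8 genes were chosen by gene name, and every probe carrying one of the 8 names was kept. This gave 9 of 39429 probes, 2 of them for Btg1 and 1 for each other gene. The RNA came from mouse embryonic fibroblasts (MEFs), connective tissue cells grown from embryos. Wild-type (WT, p53+/+) MEFs and p53-/- MEFs were each studied without doxorubicin and with doxorubicin, an anthracycline that traps topoisomerase II on DNA and causes double-strand breaks. Each of the 4 conditions was 1 one-color array, and all 4 arrays lay on 1 slide, so that no difference has a replicate check, no p-value can be given, and slide position and condition cannot be told apart. The strain and embryonic age of the MEFs, the p53 allele, the number of embryos behind each culture, and the dose and hours of doxorubicin for the arrays are not given in the sources used here.

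GADD45 proteins are small acidic stress sensors that have no enzyme activity of their own. They bind the kinase MAP3K4 and thereby switch on p38 and JNK signaling, and they also bind PCNA, p21 and the cyclin B1 and CDK1 complex at the G2/M transition. BTG and TOB proteins share a BTG domain that binds the CNOT7 and CNOT8 deadenylases of the CCR4-NOT complex, which shortens poly(A) tails and slows growth. Gadd45a and Btg2 are textbook p53 target genes, Gadd45b responds to TGF-β and NF-κB signaling, Gadd45g to cytokines, Btg1 to FOXO factors, and Tob1 and Tob2 are best known as brakes on proliferation that growth factor kinases inactivate.

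The promoters of the 3 GADD45 genes and of Btg2 are shown because these genes gave the contrasts on which the results below turn, that is, opposite doxorubicin ratios within 1 family and the gene with the lowest ratio of p53-/- over WT. Each window runs from 250 bases before an annotated transcription start to 50 bases from it on, read 5′ to 3′ on the gene's strand, from RefSeq on build GRCm38.p6. All 8 genes matched a window, and Btg3 matched 2, which made 9 windows. Capitals mark matches, on either strand, to the octamer ATTTGCAT, the CCAAT box CCAAT, the cAMP response element TGACGTCA, the TATA box TATAAA, the E-box CACGTG and the p53 half-site. The Gadd45a window lies at chr6:67037358-67037657 on the minus strand, Gadd45b at chr10:80929841-80930140 on the plus strand, Gadd45g at chr13:51846425-51846724 on the plus strand and Btg2 at chr1:134079106-134079405 on the minus strand.
Gadd45a: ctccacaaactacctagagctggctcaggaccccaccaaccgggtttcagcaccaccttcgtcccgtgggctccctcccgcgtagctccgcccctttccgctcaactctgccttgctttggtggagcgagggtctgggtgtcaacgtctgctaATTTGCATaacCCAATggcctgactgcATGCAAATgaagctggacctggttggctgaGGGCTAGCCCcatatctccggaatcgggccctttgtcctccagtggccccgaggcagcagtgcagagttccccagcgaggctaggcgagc
Gadd45b: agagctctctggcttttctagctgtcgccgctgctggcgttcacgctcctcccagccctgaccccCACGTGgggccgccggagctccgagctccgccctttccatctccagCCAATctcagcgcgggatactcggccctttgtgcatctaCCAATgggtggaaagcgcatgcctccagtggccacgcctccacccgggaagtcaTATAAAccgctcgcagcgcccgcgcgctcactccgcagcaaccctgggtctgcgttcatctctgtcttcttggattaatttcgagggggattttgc
Gadd45g: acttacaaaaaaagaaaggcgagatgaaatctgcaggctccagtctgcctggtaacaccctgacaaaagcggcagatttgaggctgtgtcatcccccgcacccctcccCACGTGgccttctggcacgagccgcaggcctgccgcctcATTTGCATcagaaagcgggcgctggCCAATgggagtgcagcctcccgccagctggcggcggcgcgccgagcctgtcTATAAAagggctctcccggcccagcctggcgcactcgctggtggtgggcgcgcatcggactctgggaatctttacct
Btg2: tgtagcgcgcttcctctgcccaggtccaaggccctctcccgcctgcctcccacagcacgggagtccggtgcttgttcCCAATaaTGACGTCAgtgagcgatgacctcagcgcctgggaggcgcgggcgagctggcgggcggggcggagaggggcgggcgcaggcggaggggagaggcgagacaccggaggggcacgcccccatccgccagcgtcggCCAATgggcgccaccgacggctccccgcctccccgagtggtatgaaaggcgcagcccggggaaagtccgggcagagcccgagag

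Gadd45a held 2 octamers, which began 97 and 70 bases before the start site, around a CCAAT box, and a p53 half-site GGGCTAGCCC that began 40 bases before it. Gadd45g held 1 octamer 103 bases before its start site. The octamer was present in 1.74% of all 32851 windows and the p53 half-site in 8.36%. Gadd45b and Gadd45g each carried a TATA box, an E-box and at least 1 CCAAT box, and the Gadd45a window had no TATA box or E-box match. Btg2 held a cAMP response element 166 bases before its start site, a match present in 1.79% of windows, beside CCAAT boxes 173 and 34 bases before it. The CCAAT box was found in 7 of the 8 genes, against 37.4% of windows, and Tob2 had no match to any of the 6 motifs. A TATA box was found in 4 of the 8 genes (Gadd45b, Gadd45g, Btg1 and Tob1), against 13.6% of windows, and an E-box in 2, against 7.15%. The 9 windows had a G and C content of 57.7% to 75.7%, with a median of 52.7% over all windows. No match overlapped another. A match is a run of letters and not a tested binding site, and the well known p53 element of Gadd45a lies in an intron outside the window shown. Of the 8 genes only Gadd45a matched the p53 half-site. Matches had to fit the whole motif, so a p53 element that departs from it in any letter stays unmarked. The lack of a match in the Btg2 window, or in the others, therefore does not show that a p53 element is absent.

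The gene missing in p53-/- MEFs was checked first. The Trp53 probe gave signals of 1228 in untreated WT, 3442 in doxorubicin-treated WT, 442 in untreated p53-/- and 543 in doxorubicin-treated p53-/- MEFs, so that its log2 ratio of p53-/- over WT was -1.33 without and -3.08 with doxorubicin. Whether this probe lies in the deleted part of the gene is not given in the sources used here. Fibroblast identity was checked with 12 markers, and 12 of 12 were well above background on every array, with Col1a2 the brightest. With doxorubicin 5 of the 12 were at least 2-fold lower in WT MEFs (median log2 ratio -0.82) and 2 in p53-/- MEFs (median -0.27), and 0 were at least 2-fold higher in either. Among all genes 10.4% and 6.89% were lower in WT and p53-/- MEFs, and 11% and 9.24% were higher. The lowest of the 12 was Lum, at -4.81 and -2.34, followed in WT MEFs by Pdgfra, at -3.36 and -0.89. Of the markers of other cell types, Itgam of the leukocyte list had signals of 26264 to 31691 on the 4 arrays, and the log2 doxorubicin ratio of Cd14 was 3.74 for WT and 0.62 for p53-/- MEFs. Ptprc of the same list had signals of 65.3 to 104, below the brightest negative control spot of each array. Of the 7 leukocyte markers measured in WT MEFs, 4 had a doxorubicin ratio above 0, against 50.7% of all genes. The median of the 7 was 0.17, and 1 was at least 2-fold higher. The summed level of the 6 epithelial markers, relative to each array's 75th percentile, was 7.35 and 7.58 in untreated WT and p53-/- MEFs and 29.8 and 35.1 after doxorubicin, carried by Krt18 and Krt19, while Epcam and Cldn4 were not well above background on any array. The sums for the 8 leukocyte, 6 endothelial and 5 muscle markers were 15.1 to 23.0, 2.40 to 4.27 and 0.346 to 1.22. The part of these levels in the results was not tested. In RNA from whole cultures, fewer cells of a kind and less RNA per cell cannot be told apart.

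A signal below is the intensity of a probe after background subtraction, a relative signal is that intensity divided by the 75th percentile of its array, and a log2 ratio is the difference of log2 relative signals between 2 arrays. All 9 member probes were well above background on all 4 arrays, and the lowest of their signals, Tob1 in untreated p53-/- MEFs, was 2.04 times the brightest negative control spot of that array. Each member probe was spotted once. Probes spotted 10 times gave a spread between repeat spots of 0.08 (SD) for a log2 ratio and 0.12 for a difference of 2 such ratios. In what follows, beyond the spot spread means more than 2 SD, that is, 0.17 for a ratio and 0.24 for a difference. This spread covers spots of 1 array and not cultures, labelings or animals.

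**Figure D1:**
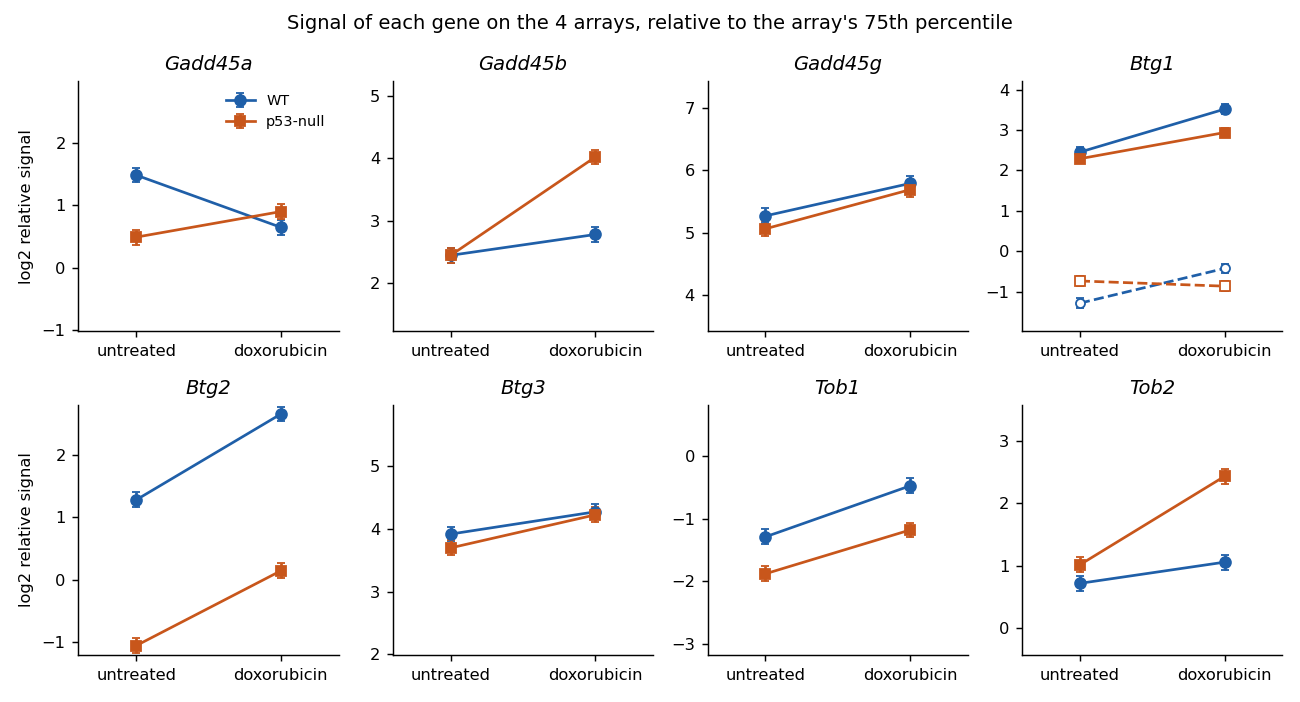
Log2 relative signal of each of the 8 genes (vertical axes, each panel with its own range) without and with doxorubicin in WT (circles) and p53-null, that is p53-/-, MEFs (squares), 1 array per point. Bars are 2 SD of the spread between repeat spots, and open symbols with broken lines are the dimmer Btg1 probe. The Gadd45a lines cross, the Gadd45b and Tob2 lines part after doxorubicin, and the Btg2 lines run side by side.

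The first question was what doxorubicin did to these genes when p53 was present. In WT MEFs, Btg2 and Btg1, both antiproliferative genes of the BTG family, were more than 2-fold higher with doxorubicin, and Gadd45a was 1.78-fold lower. The other 5 genes were 1.26-fold to 1.76-fold higher. Thus 2 of 8 genes were at least 2-fold higher and 0 were at least 2-fold lower, where the shares among all 17513 genes measured were 11% and 10.4%. The median log2 ratio of the 8 genes was 0.44, with 7 of 8 above 0, and that of all genes was 0.01, with 50.7% above 0. Scaled to the array median, which put the median of all genes at -0.27, the 2 genes past 2-fold were Btg2 (1.10) and Gadd45a (-1.11), and Btg1 was at 0.79.

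Gadd45a, which binds PCNA and CDK1, had a signal of 5803 without and 2853 with doxorubicin in WT MEFs (probe at chr6:66985376-66985435 of mm9), or relative signals of 2.80 and 1.57. The untreated WT array was the highest of the 4 for this gene, and the WT log2 ratio of -0.83 lay beyond the spot spread, with 13.6% of genes lower. Gadd45b, the TGF-β and NF-κB responsive member, had signals of 11316 and 12503 (chr10:80394367-80394426), relative signals of 5.46 and 6.87, and a log2 ratio of 0.33. Gadd45g, the cytokine responsive member, had signals of 79918 and 100417 (chr13:51943733-51943792), relative signals of 38.5 and 55.2, and a log2 ratio of 0.52. Within the GADD45 family, therefore, 1 gene was lower and 2 were higher with doxorubicin in WT MEFs, none of them by 2-fold.

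Among the BTG/TOB genes, all 5 log2 ratios in WT MEFs were above 0, with a median of 0.82. Btg2, which slows the G1/S transition, had signals of 5025 and 11409 (chr1:135972094-135972153), relative signals of 2.42 and 6.27, and a log2 ratio of 1.37, with 6.68% of genes higher. Btg1, a cofactor of the arginine methyltransferase PRMT1, had signals of 11380 and 20875 on its brighter probe (chr10:96082071-96082130), relative signals of 5.49 and 11.5, and a log2 ratio of 1.06. The dimmer Btg1 probe, at chr10:96085358-96085417, gave signals of 850 and 1352 and a log2 ratio of 0.86, so the 2 probes lay on either side of the 2-fold line in WT MEFs. Tob1, named as a transducer of the ERBB2 receptor, had signals of 846 and 1306 (chr11:94075956-94076015), relative signals of 0.408 and 0.718, and a log2 ratio of 0.82. Btg3, a binding partner of E2F1 and CHK1, had signals of 31368 and 35204 (chr16:78360193-78360252) and a log2 ratio of 0.36. Tob2 had signals of 3412 and 3784 (chr15:81679488-81679547) and a log2 ratio of 0.34. All 8 WT ratios were beyond the spot spread, as were those of most genes, since 21.9% of all genes lay within it.

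The next question was what doxorubicin did when p53 was missing. In p53-/- MEFs, Gadd45b, Tob2 and Btg2 were more than 2-fold higher with doxorubicin, and the other 5 genes were 1.33-fold to 1.62-fold higher. That made 3 of 8 genes at least 2-fold higher, against 9.24% of 16950 genes, and 0 of 8 at least 2-fold lower, against 6.89%. The median log2 ratio was 0.67, with 8 of 8 above 0, and that of all genes was 0.00, with 50.1% above 0. Scaled to the array median, which put the median of all genes at -0.30, Btg2 fell short of 2-fold (0.90).

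Gadd45b had signals of 10270 without and 39300 with doxorubicin in p53-/- MEFs, relative signals of 5.46 and 16.2, and a log2 ratio of 1.57, with 3.91% of genes higher. The doxorubicin-treated p53-/- array was the highest of the 4 for Gadd45b, while the other 3 arrays had relative signals of 5.46 to 6.87. Gadd45a had signals of 2646 and 4522, relative signals of 1.41 and 1.87, and a log2 ratio of 0.41, the opposite sign to WT MEFs. Gadd45g had signals of 62807 and 124737, relative signals of 33.4 and 51.5, and a log2 ratio of 0.63, against 0.52 in WT MEFs.

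Tob2 had signals of 3803 and 13045, relative signals of 2.02 and 5.39, and a log2 ratio of 1.41, with 4.85% of genes higher. As for Gadd45b, the doxorubicin-treated p53-/- array stood alone, and the other 3 relative signals were 1.65 to 2.08. Btg2 had signals of 906 and 2673, relative signals of 0.482 and 1.10, and a log2 ratio of 1.20, although doxorubicin-treated p53-/- MEFs still had less Btg2 than untreated WT MEFs. Tob1 had signals of 510 and 1066 and a log2 ratio of 0.70. Btg3 had signals of 24411 and 45324 and a log2 ratio of 0.53. The brighter Btg1 probe had signals of 9210 and 18595 and a log2 ratio of 0.65. The dimmer Btg1 probe had signals of 1128 and 1328 and a log2 ratio of -0.13, within the spot spread, so the 2 probes of this gene disagreed in p53-/- MEFs.

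**Figure D2:**
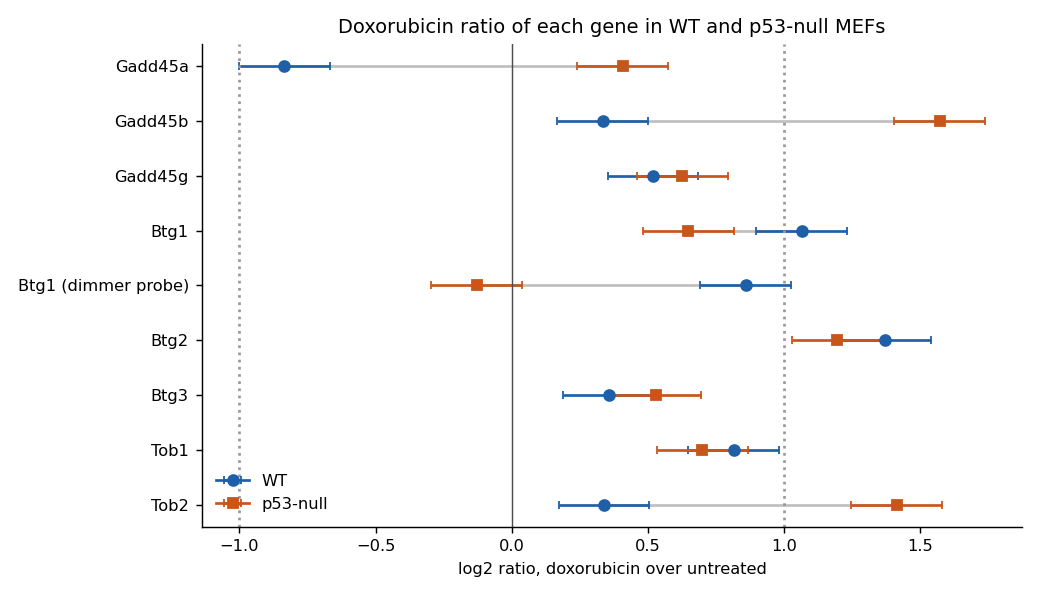
Log2 ratio of doxorubicin-treated over untreated MEFs (horizontal axis) for each gene and for the dimmer Btg1 probe, in WT (circles) and p53-null (squares) MEFs. Bars are 2 SD of the spread between repeat spots and dotted lines mark 2-fold. Gadd45a, Gadd45b and Tob2 have the widest gaps between genotypes, and Gadd45a is the only one of the 8 genes below 0 in WT MEFs.

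The difference between the doxorubicin ratios of the 2 genotypes (WT minus p53-/-) was taken next. Gadd45a (-1.24), Gadd45b (-1.24) and Tob2 (-1.07) had a log2 difference beyond 2-fold, in each case with the higher ratio in p53-/- MEFs. That was 3 of 8 genes, against 9.86% of 16513 genes with a difference at least 2-fold in this direction, and 0 of 8 against 8.37% in the other. The differences for Btg2 (0.18), Btg3 (-0.17), Tob1 (0.12) and Gadd45g (-0.11) were within the spot spread, which held 29.2% of all genes. The difference for Btg1 was 0.42 on the brighter probe and 0.99 on the dimmer one, both with the higher ratio in WT MEFs. The median difference was -1.24 over the 3 GADD45 genes, 0.12 over the 5 BTG/TOB genes and 0.01 over all genes. With 1 array per condition, none of these differences could be tested.

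The genes with a difference beyond 2-fold reached it from different sides. For Gadd45a the arrays parted without doxorubicin, where p53-/- MEFs were 1.99-fold lower, and with doxorubicin they were 1.19-fold higher. For Gadd45b the 2 untreated arrays had the same relative signal of 5.46, and for Tob2 they differed by a log2 ratio of 0.30. Both genes then parted with doxorubicin, by log2 ratios of 1.24 and 1.37. For Btg2 the arrays of the 2 genotypes were apart by log2 ratios of -2.33 without and -2.51 with doxorubicin.

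**Figure D3:**
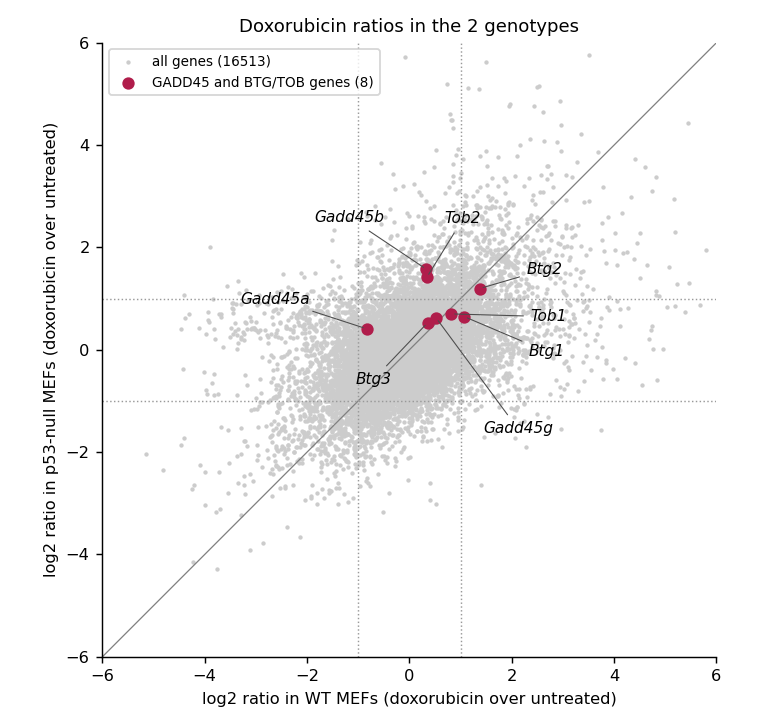
Log2 doxorubicin ratio in p53-null MEFs (vertical axis) against that in WT MEFs (horizontal axis) for 16513 genes, with the 8 genes in red. The diagonal marks equal ratios, dotted lines mark 2-fold, and 5 genes lie outside the axes. Gadd45b and Tob2 lie above the upper 2-fold line and left of the right one, Gadd45a lies left of 0 and above the diagonal, and Btg2 is past 2-fold on both axes.

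The last comparison set p53-/- against WT MEFs at equal treatment. Without doxorubicin, Btg2 was 5.03-fold lower in p53-/- MEFs, Gadd45a was 1.99-fold lower, just short of 2-fold, and Tob1 was 1.51-fold lower. The log2 ratios were -2.33 for Btg2, with 0.162% of genes lower, -0.99 for Gadd45a, with 2.67% lower, and -0.59 for Tob1, with 8.55% lower. Thus 1 of 8 genes was at least 2-fold lower, against 2.61% of 17287 genes, and 0 were at least 2-fold higher, against 2.15%. Scaled to the array median, Gadd45a was past 2-fold as well (-1.04). The remaining ratios were -0.22 for Btg3, -0.21 for Gadd45g, -0.16 for Btg1, 0.00 for Gadd45b and 0.30 for Tob2, of which those of Gadd45b and Btg1 were within the spot spread. The dimmer Btg1 probe read the other way, with a log2 ratio of 0.55. The median of the 8 genes was -0.21.

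With doxorubicin, Btg2 was 5.68-fold lower in p53-/- MEFs (log2 ratio -2.51, with 1.63% of genes lower), and it was the gene with the widest gap between genotypes among the 8 in either treatment. Tob2 and Gadd45b were 2.59-fold and 2.36-fold higher in p53-/- MEFs. That made 2 of 8 genes at least 2-fold higher, against 11.9% of 17888 genes, and 1 of 8 at least 2-fold lower, against 10.3%. Tob1 was 1.63-fold lower (log2 ratio -0.71). The log2 ratios were -0.58 for Btg1, with -0.44 on its dimmer probe, and 0.25 for Gadd45a. Gadd45g (-0.10) and Btg3 (-0.05) were within the spot spread. The median of the 8 genes was -0.07. These comparisons use the same 4 arrays as the doxorubicin ratios above, and are therefore another view of the same values.

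**Figure D4:**
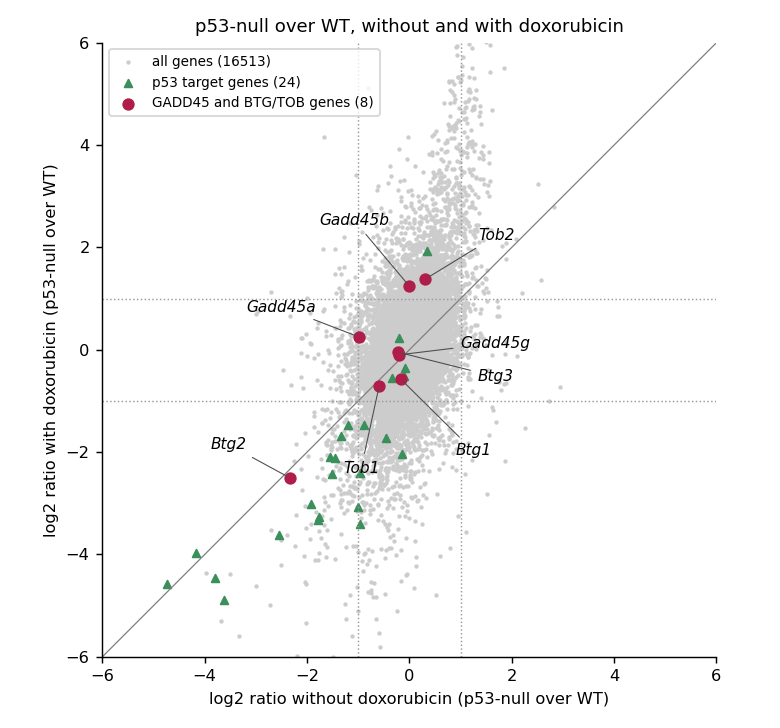
Log2 ratio of p53-null over WT MEFs with doxorubicin (vertical axis) against the same ratio without doxorubicin (horizontal axis) for 16513 genes, with the 8 genes in red and 24 p53 target genes as green triangles. The diagonal marks equal ratios, dotted lines mark 2-fold, and 11 genes lie outside the axes. Btg2 is the only one of the 8 genes in the lower left corner, where most of the p53 target genes lie, and Gadd45b and Tob2 lie above the upper 2-fold line.

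The order of the 4 conditions differed among the genes. For Btg2 it was doxorubicin-treated WT, untreated WT, doxorubicin-treated p53-/- and untreated p53-/- MEFs, with every neighboring pair apart by more than the spot spread. Tob1 had the same lowest and highest conditions as Btg2, but its doxorubicin-treated p53-/- array (relative signal 0.440) and its untreated WT array (0.408) did not differ beyond the spot spread. For Gadd45a the order was untreated WT, doxorubicin-treated p53-/-, doxorubicin-treated WT and untreated p53-/- MEFs, of which the last pair did not differ beyond the spot spread. Gadd45b and Tob2 were highest in doxorubicin-treated p53-/- MEFs and next in doxorubicin-treated WT MEFs. For Gadd45b the 2 untreated arrays, and for Tob2 the doxorubicin-treated WT and untreated p53-/- arrays, were within the spot spread of each other. Gadd45g, Btg3 and the brighter Btg1 probe were highest in doxorubicin-treated WT MEFs, followed by doxorubicin-treated p53-/-, untreated WT and untreated p53-/- MEFs. In that order the first pair was within the spot spread for Gadd45g and Btg3, and the last pair for Btg1.

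The likeness of these patterns was described by the distance between the 4 log2 relative signals of 2 genes after each gene's mean was subtracted. Among the 8 genes, Gadd45g and Btg3 were nearest (0.135), followed by Gadd45b and Tob2 (0.242) and by Btg1 and Tob1 (0.330). Btg2 was 1.85 or more from each of the other genes. Of the 16513 genes measured on all 4 arrays, 12450 were kept by the form of their symbol, which left out clone, LOC, Gm, Rik, microRNA and like names, and among these the nearest to Btg2 was Gdf15, a stress cytokine gene, at 0.398, with log2 ratios of 1.28 and 0.64 for doxorubicin in WT and p53-/- MEFs and of -2.09 and -2.73 for p53-/- over WT. Ifi27l2b (0.513) and Tcn2 (0.580) came next. The nearest genes to Gadd45a were Ropn1l (0.052), Cd300c2 (0.138) and Agbl3 (0.143), and those to Gadd45b were Enpp2 (0.054), Inip (0.105) and Zfp955a (0.138). Those to Gadd45g were Pdcd6 (0.031), Mterf1a (0.035) and Hspa4l (0.037). Those to Btg1 were Znhit2 (0.039), Ikbkg (0.046) and Grk4 (0.063). Those to Btg3 were Zfp935 (0.020), Tmem116 (0.029) and Zfp513 (0.035), to Tob1 Smim15 (0.048), Tmem179 (0.108) and Creb3 (0.109), and to Tob2 Aldh1a7 (0.079), Daxx (0.115) and Sord (0.148). For each of the 7 members other than Btg2, the nearest gene lay at 0.079 or less. With 4 conditions and 12450 genes, near patterns are common and say nothing of shared function or control.

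The partners of the GADD45 proteins showed both directions. Of 18 listed genes, 16 were measured for WT MEFs, where 3 were at least 2-fold higher and 5 lower with doxorubicin, and 17 for p53-/- MEFs, where 1 was higher and 1 lower. The shares of all genes higher and lower were 11% and 10.4% in WT and 9.24% and 6.89% in p53-/- MEFs. Among the listed partners, the doxorubicin ratios of Cdk1, Ccnb1 and Pcna, which act in the cell cycle, differed most between genotypes. Log2 doxorubicin ratios in WT and p53-/- MEFs were -2.08 and 0.61 for Pcna, the replication clamp, -3.22 and 0.31 for Cdk1, and -2.33 and 0.41 for Ccnb1, its cyclin. Gadd45a had the same pair of signs, at -0.83 and 0.41, with a smaller gap. For p53-/- over WT without doxorubicin the signs differed, at -0.99 for Gadd45a and 0.27, 0.76 and 1.28 for Pcna, Cdk1 and Ccnb1. With doxorubicin these ratios were 0.25 for Gadd45a and 2.96, 4.30 and 4.02 for Pcna, Cdk1 and Ccnb1. Cdkn1a, the p21 inhibitor of cyclin-dependent kinases, had ratios of 2.08 and 2.23, and was lower in p53-/- MEFs by log2 ratios of -4.73 without and -4.58 with doxorubicin. Btg2 had ratios of 1.37 and 1.20 for doxorubicin and of -2.33 and -2.51 for p53-/- over WT, with the same sign as Cdkn1a in each of these ratios. Ercc5, a nuclease of excision repair, had ratios of 1.66 and 0.02. Map3k4, the kinase that GADD45 proteins activate, had ratios of -0.80 and -1.03, and Mapk14, the p38α kinase, 0.03 and -0.18. Gadd45gip1, which binds GADD45 proteins and belongs to the mitochondrial ribosome, had ratios of 0.41 and 0.33.

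The partners of the BTG/TOB proteins had few ratios past 2-fold. Of 18 listed deadenylase subunits and partners, 17 were measured, and with doxorubicin 0 were at least 2-fold higher in either genotype, 0 were lower in WT and 1 was lower in p53-/- MEFs, beside the shares of 11% and 10.4% of all genes in WT and 9.24% and 6.89% in p53-/- MEFs. In WT MEFs 4 of the 17 ratios were above 0, and in p53-/- MEFs 6, against 50.7% and 50.1% of all genes. Their medians were -0.24 and -0.14, below the 0.82 and 0.70 of the 5 BTG/TOB genes. The nearest to 2-fold in WT MEFs were Cnot6l (-0.98) and Cnot9 (-0.94), with -0.21 and -0.12 in p53-/- MEFs, and Cnot6 had -0.66 and 0.14. Cnot7 and Cnot8, the deadenylases that the BTG domain binds, had log2 ratios of 0.08 and -0.24 in WT and 0.19 and 0.06 in p53-/- MEFs. Prmt1, the methyltransferase partner of BTG1, was the 1 gene past 2-fold, with -1.08 in p53-/- and -0.21 in WT MEFs. With doxorubicin Cnot9 was higher in p53-/- than in WT MEFs, by a log2 ratio of 1.65.

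Of 18 listed upstream regulators, 17 were on the array and 14 were measured. With doxorubicin 2 were at least 2-fold higher and 1 lower in WT MEFs, and 1 higher and 0 lower in p53-/- MEFs. Beside them, the shares of all genes higher and lower were 11% and 10.4% in WT and 9.24% and 6.89% in p53-/- MEFs. Trp53 itself had log2 ratios of 1.68 and -0.07. Atf3, a stress-induced factor, had signals of 1321 and 692 without and with doxorubicin in WT MEFs and 1133 and 6424 in p53-/- MEFs, or log2 ratios of -0.74 and 2.14. Ddit3, which encodes CHOP, had ratios of -0.71 and 0.83, and Atf4, a factor upstream of both, -1.02 and -0.74. Cebpa had ratios of 1.54 and 0.24. Foxo3 was well above background on 1 of 4 arrays and gave no ratio. Atf3 and Ddit3 thus had the sign pattern of Gadd45a, and like Gadd45b and Tob2 were highest in doxorubicin-treated p53-/- MEFs.

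Immediate early genes, fast targets of growth factor and stress kinases, were listed because Btg2 and Gadd45b are often counted among them. Of 20 listed, 19 were measured, and with doxorubicin 5 were at least 2-fold higher in WT and 11 in p53-/- MEFs, with 0 lower in either. Among all genes 11% and 9.24% were higher in WT and p53-/- MEFs, and 10.4% and 6.89% were lower. The median log2 ratios of the 19 immediate early genes were 0.51 and 1.29, and those of the 8 members were 0.44 and 0.67. Nr4a1, a nuclear receptor gene, had ratios of 0.09 and 1.38, and Klf6 had 0.18 and 0.99, beside 0.33 and 1.57 for Gadd45b and 0.34 and 1.41 for Tob2. Fosl1, an AP-1 subunit gene, read the other way, with 3.02 in WT and 1.33 in p53-/- MEFs.

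Of 25 listed p53 target genes other than Gadd45a and Btg2, 14 of 25 measured were at least 2-fold higher and 1 lower with doxorubicin in WT MEFs, and 6 of 24 were higher and 1 lower in p53-/- MEFs. The shares of all genes higher and lower were 11% and 10.4% in WT and 9.24% and 6.89% in p53-/- MEFs. The medians of the targets were 1.10 and 0.38. Without doxorubicin 14 of 24 targets, against 2.61% of all genes, were at least 2-fold lower in p53-/- MEFs, with a median of -1.27. With doxorubicin 19 of 24 were, against 10.3% of all genes, and the median of the targets was -2.26. Btg2, at -2.33 and -2.51, was past both medians. Gadd45a, at -0.99 and 0.25, was nearer 0 than the first and on the other side of 0 from the second. Targets with the largest gaps between the doxorubicin ratios in WT and p53-/- MEFs were Ei24 (1.75 and -0.68), Sesn2 (0.73 and -1.34), Trp53i11 (3.81 and 1.92) and Ddb2 (-1.20 and 0.39), of which Ddb2 had the signs of Gadd45a.

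**Figure D5:**
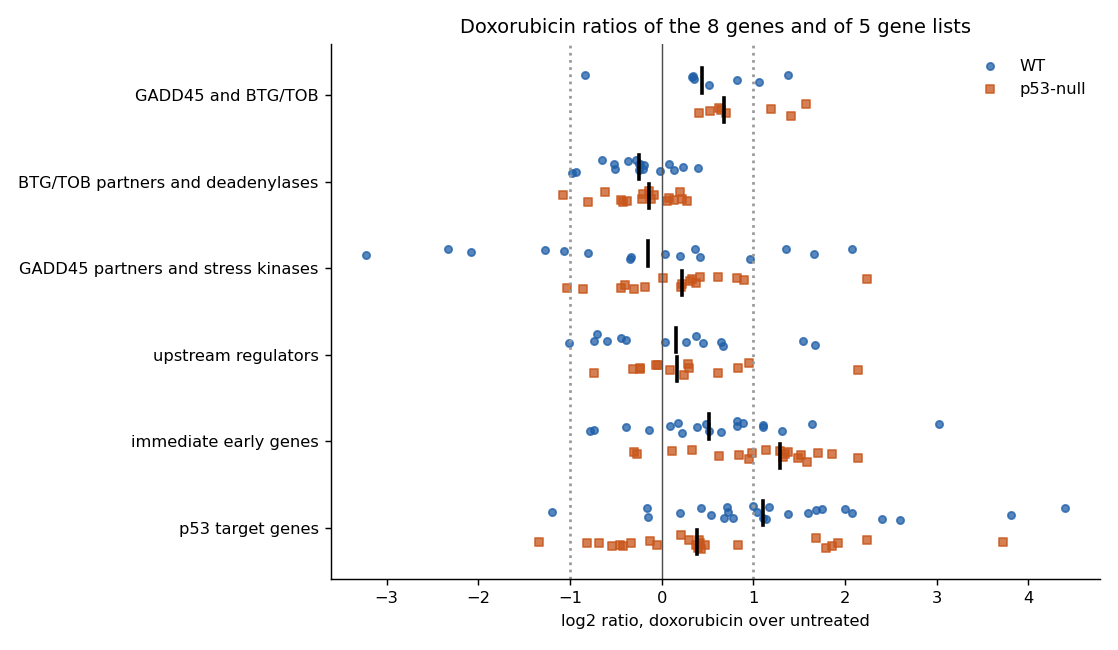
Log2 ratio of doxorubicin-treated over untreated MEFs (horizontal axis) for the 8 genes and for the measured genes of 5 lists, in WT (circles) and p53-null (squares) MEFs, each point 1 gene and each black bar a median. Dotted lines mark 2-fold, and points are spread vertically only to be seen. The 8 genes and 4 of the 5 lists have the higher median in p53-null MEFs, and the p53 target genes in WT MEFs.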

How the data were processed

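Per the labels, Cy3-labeled RNA made from 200 ng of total RNA was read on 1 one-color Agilent array for each condition. The authors deposited intensities read with Feature Extraction (version 10.7.3.1 per the file headers), background-subtracted and detrended within each array but not normalized between arrays. The deposited table of intensities equaled these processed signals at 100% of features. The deposited flags (0 or 1) mark spots well above background, saturated or outlying. The fold changes that the methods describe were not used.

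Control spots were set aside, which left 43020 spots per array. Outlier spots (145 to 168) were left out and 0 were saturated. Log2 intensities were averaged per probe, and the 75th percentile of the array (signals of 1819 to 2421) was subtracted. Between 56.9% and 62.9% of the probes were well above background, and the 153 negative control spots reached at most 77.5 to 250.1. Each gene took the probe brightest on average over the 4 arrays, and a ratio needed it well above background on the arrays compared. Names came from a RefSeq table (GRCm38.p6) for 26055 probes by accession, 3195 by symbol and 930 by synonym, and 9249 kept the file's name. Positions of probes follow the files (mm9), and no exon or UTR was assigned, since no annotation of that build was used here.

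The members, the 5 gene lists and the 5 marker lists were chosen with earlier results of these data known, so they are descriptions and not independent evidence. Lists share genes, such as Cdkn1a, Atf3 and Egr1. Named genes were the 8 members, the 4 genes per list with the largest difference between genotypes, 12 partners and regulators set by name, and the 3 genes nearest each member. The 253 probes with 10 spots gave the spot spread. No p-value was calculated. Alternatives were array median scaling, quantile normalization, normexp (limma, offset 50), no filter on dim probes, all 4 arrays or the brightest negative control as the filter, the mean of probes, the deposited table, and 1.5-fold and 3-fold. The steps were tested on simulated arrays. Python 3.11.15 (numpy 2.4.6, pandas 2.3.3, matplotlib 3.10.9) and R 4.3.3 (limma 3.58.1) were used.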

Additional observations from a re-analysis of the deposited data

Results flagged for a closer look

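A doxorubicin ratio with opposite signs in WT and p53-/- MEFs and beyond the spot spread (0.17) in each drew attention to 9 genes among the members and the named genes of the lists. Many named genes were picked for a large difference between genotypes, which favors opposite signs. The share of all genes that meet this rule is not given here, so the count cannot be called unusual. The genes nearest each member were not counted, and the 3 nearest Gadd45a (Ropn1l, Cd300c2 and Agbl3) had its signs as well. For Trp53, Cnot6, Cnot8 and Mapk14 the signs were opposite as well, but at least 1 of the ratios was within that spread. For 1 of the 8 growth arrest genes, Gadd45a, the log2 ratio was -0.83 in WT and 0.41 in p53-/- MEFs, a difference of -1.24. The same signs were found for Cdk1 (difference -3.53), Atf3 (-2.88), Ccnb1 (-2.74), Pcna (-2.69), Ddb2 (-1.59) and Ddit3 (-1.53). Ei24 (2.43) and Sesn2 (2.07) had the opposite signs, higher with doxorubicin in WT and lower in p53-/- MEFs. With 1 array per condition, none of these differences was tested.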

How the results depend on the processing

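With 1 array per condition no array could be left out, and no paired analysis was possible because no group has more than 1 sample. Blocking on the slide was not run because there was 1 slide. No direction of a 2-fold call turned under any alternative. The count past 2-fold in WT MEFs, 2, was 1 with the mean of a gene's probes (Btg1 was then 0.96), 4 at 1.5-fold and 0 at 3-fold. In p53-/- MEFs the count of 3 was 6 at 1.5-fold and 0 at 3-fold. For p53-/- over WT without doxorubicin the count of 1 was 2 with the array median as the scale, which added Gadd45a (-1.04), and 3 at 1.5-fold. With doxorubicin the count of 3 was 1 at 3-fold (Btg2), and the 3 differences between genotypes past 2-fold were 0 at 3-fold. Scaling to the array median gave doxorubicin ratios with a median over all genes of -0.27 (WT) and -0.30 (p53-/-). Under it Gadd45a (-1.11) and Btg2 (1.10) were the 2 genes past 2-fold in WT MEFs, with Btg1 at 0.79, and Btg2 fell short in p53-/- MEFs (0.90), which left 2. Of 40 member ratios, 16 moved by more than the spot spread of 1 SD under this scale, 4 with quantile normalization, 4 with the mean of probes and 0 with normexp, the 3 other settings of the filter on dim probes or the deposited table. The dimmer Btg1 probe alone, an alternative chosen after seeing the data, moved 5 of 5 and turned the Btg1 signs for doxorubicin in p53-/- MEFs (0.65 to -0.13) and for p53-/- over WT without doxorubicin (-0.16 to 0.55). Under the other alternatives, signs of small ratios that turned were those of Gadd45b (-0.05 to 0.08) and Btg1 (-0.21 to 0.19) for p53-/- over WT without doxorubicin and of Gadd45g (-0.17 to 0.09) and Btg3 (-0.12 to 0.08) with it. Precision is limited by the number of arrays, and Tob1 had the signals nearest to the negative controls.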
